A study of Arabidopsis thaliana with 6 samples.

Results

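The genes described here encode proteins of the large, 60S subunit of the ribosome in the cytosol of Arabidopsis thaliana. Members were chosen by locus from a list of 60 such genes, and a gene was measured when the array annotation paired a probe set, a group of short probes for 1 transcript, with it alone. This gave 37 genes of 24 protein families, out of 13286 genes measured in that way on the array. Each of the 37 had 1 such probe set, all of which passed the filter on dim signals. Of the other 23 listed genes, 9 lay on probe sets shared with another gene and 14 had no probe set named for them, so none of these is described singly. Of the 60 listed genes, only those 37 are meant below by members.

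Transcript levels had been measured on ATH1 arrays in whole seedlings of Col-0, the wild-type reference accession, and of atsf1-2, a mutant in the Col-0 background of AtSF1, a protein of pre-mRNA splicing. Seedlings of both genotypes were grown without treatment on MS agar for 9 days under long days before harvest. Each genotype had 3 biological replicates with 1 array each, and the labels do not say what the atsf1-2 allele does to the protein. AT5G51300, the AtSF1 gene, is not analysed here, because no probe set was paired with it alone, and its level was thus no check on the genotypes.

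A cytosolic ribosome consists of a small 40S subunit, which reads the messenger RNA, and a large 60S subunit, which joins amino acids and leads the growing chain out through a tunnel. Most of these proteins are present once in each ribosome, the acidic stalk proteins in several copies, and their genes are known for transcripts that move together and are abundant in growing tissue. In Arabidopsis each 60S protein is encoded by a small family of paralogs, whose proteins are nearly alike. Names such as RPL28A follow the usual nomenclature, with a letter for the paralog.

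The deposited values are signal intensities. Array medians ran from 183 to 196 in Col-0 and from 165 to 181 in atsf1-2, so every mutant array lay below every wild-type array. The part of this difference in the fold changes below was not tested. RNA integrity was read from the log2 ratio of 3' to 5' control probe sets, which for GAPDH was 0.0018 ± 0.14 in Col-0 against 0.14 ± 0.059 in atsf1-2, and for ubiquitin 0.36 ± 0.061 against 0.46 ± 0.080 (SD, n = 3; exact permutation p = 0.2 for each, two-sided, where 3 against 3 cannot go below 0.1). For actin they were 1.55 ± 0.39 and 1.65 ± 0.30 (SD, n = 3; exact permutation p = 0.6), with the lowest value of each genotype on Col-0 replicate 2 and atsf1-2 replicate 3. These 2 arrays stood apart from the others in that measure. All 3 root markers were measured and none was at 0, with a summed signal of 15415 to 17545 in Col-0 and 15906 to 16812 in atsf1-2. Most of this sum came from PYK10, with 14678 to 16811 in Col-0 and 15216 to 16161 in atsf1-2. Of 14 leaf markers, 2 were measured and none was at 0, and their sum was 32678 to 36214 in Col-0 and 36641 to 43198 in atsf1-2, where the groups did not overlap. Taken singly, the groups overlapped for RCA and did not for LHCB4.1. Of the brightest 10% of tested probe sets, 30.3% did not overlap either, with the mutant higher. No single-gene probe set was found for any of 15 markers of dividing cells or 6 of seeds. In whole seedlings, fewer cells of a type and less RNA per cell cannot be told apart, and the part of organ composition or RNA quality in the results below was not tested.

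Transcripts of the 60S proteins were slightly higher in atsf1-2 across nearly the whole set. The log2 fold change, atsf1-2 minus Col-0, was above 0 for 36 of the 37 members, although after quantile normalization it was above 0 for 29. Its median was 0.25, with a range from -0.11 for RPL7D to 0.63 for RPL28A. Among all 13648 probe sets tested, 41.5% lay above 0 and the median was -0.070. By limma, with Benjamini-Hochberg adjustment over all tested probe sets and a threshold of 0.05, 4 members rose and none fell. That is 10.8% of the members, beside 3.00% of all tested probe sets called higher and 5.19% called lower. In the brightest 10% of tested probe sets, where 29 members lie, 70.8% lay above 0 and 7.62% were called higher. At an unadjusted p under 0.05, 16 members were higher and none was lower, beside 9.50% of all probe sets higher and 337 of the 1365 brightest. The 3 arrays of atsf1-2 all lay above the 3 of Col-0 for 18 members, or 48.6%, and below them for none. Over all tested probe sets these shares were 12.1% and 19.2%, and in the brightest 10% the first was 30.3%.

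The arrays did not contribute equally. The median over members of the log2 difference from the Col-0 mean was 0.29 on atsf1-2 replicate 1, 0.17 on replicate 2 and 0.38 on replicate 3. On the Col-0 arrays it was -0.083, 0.077 and 0.032 for replicates 1, 2 and 3. atsf1-2 replicate 3 gave the highest signal for 24 members, atsf1-2 replicate 1 for 9 and atsf1-2 replicate 2 for 2, and Col-0 replicate 1 gave the lowest for 27. The median pooled SD within genotypes was 0.14 on the log2 scale for the members, 0.15 for the brightest 10% of probe sets, where most members lie, and 0.20 for all tested probe sets. Without Col-0 replicate 2 and atsf1-2 replicate 3 together, 5 members rose, none fell and the median log2 fold change was 0.24. These 5 are 13.5% of the members, beside 3.19% of all tested probe sets and 6.89% of the brightest 10% called higher. Without any single Col-0 array or without atsf1-2 replicate 1, no member passed (limma; the median log2 fold change was then 0.18 to 0.31). Those fits called few probe sets of any kind higher, 0.916% to 1.13% of all tested and 1.90% to 2.71% of the brightest 10%.

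**Figure D1:**
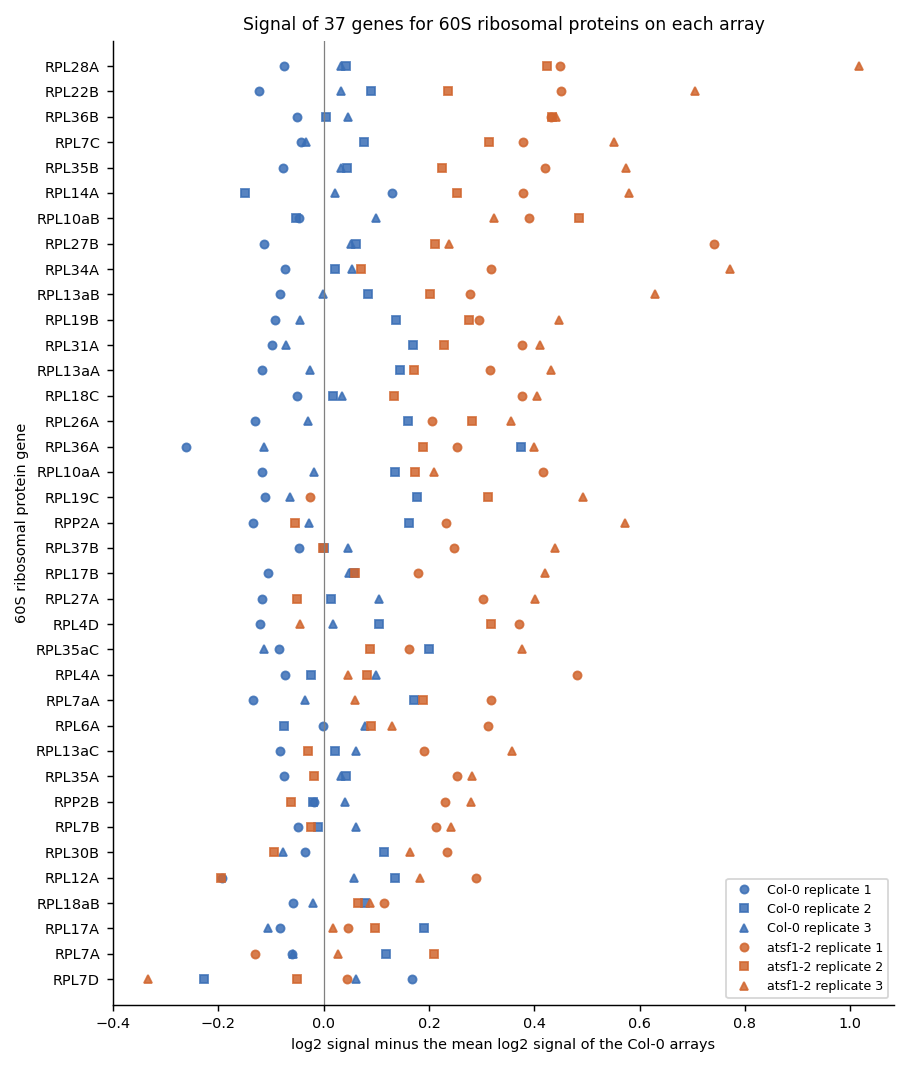
Log2 signal of each of the 37 genes on each of the 6 arrays, minus the mean of the 3 Col-0 arrays of that gene (x axis, log2 units); genes are ordered by fold change (y axis), blue marks Col-0, orange marks atsf1-2, and the marker shape is the replicate. For 18 genes all orange points lie to the right of all blue points, and orange triangles, atsf1-2 replicate 3, are the highest point for 24 genes.

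The members that rose were RPL28A, RPL36B, RPL7C and RPL10aB. RPL28A (AT2G19730) encodes a protein of the subunit surface that Saccharomyces cerevisiae lacks. Its signal was 8049, 8742 and 8687 on the Col-0 arrays and 11578, 11385 and 17168 on the atsf1-2 arrays, in the order of replicates 1 to 3. The groups did not overlap, and atsf1-2 replicate 3 lay far above the other arrays. By limma the log2 fold change came to 0.63 ± 0.15 (SE; adjusted p = 0.031). Without atsf1-2 replicate 3 it was 0.44 (limma adjusted p = 0.0208).

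RPL36B (AT3G53740) rose with the most even values. Its signal was 6216, 6453 and 6651 in Col-0 and 8678, 8690 and 8737 in atsf1-2, so that the mutant arrays were nearly equal and all above the wild type. The change was 0.43 ± 0.099 on the log2 scale (SE; adjusted p = 0.0256 by limma).

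RPL7C (AT2G44120) encodes L7, a protein of the body of the subunit. Its signal was 5931, 6442 and 5967 in Col-0 and 7946, 7590 and 8956 in atsf1-2. Every mutant array lay above every wild-type array, and the group means differed by 0.41 ± 0.11 on the log2 scale (SE; adjusted p = 0.0423 by limma). RPL10aB (AT2G27530), also known as PIGGYBACK1 for its effect on leaf shape, encodes the protein of the L1 stalk, which moves with the leaving transfer RNA. Its signal was 5013, 4998 and 5553 in Col-0 and 6791, 7254 and 6482 in atsf1-2, again with no overlap. Its log2 fold change came to 0.40 ± 0.11 (SE; adjusted p = 0.0453 by limma). With no filter on dim probe sets, or by eBayes without a trend, none of the 4 passed by limma. At an unadjusted p under 0.05, 14 and 11 of the 37 members were then higher. With no filter 1531 of all 22746 probe sets were higher at that p, and 466 of the 2275 brightest. Without a trend the counts were 1185 of 13648 and 241 of the 1365 brightest. After quantile normalization the log2 fold changes of RPL36B, RPL7C and RPL10aB were 0.25, 0.24 and 0.24, and none of these 3 passed (limma adjusted p = 0.123, 0.14 and 0.203).

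Proteins known from structures of other eukaryotic ribosomes to line the exit tunnel or to surround its mouth are L4, L17, L19, L22, L26, L31 and L35. All 11 measured genes of these families had a log2 fold change above 0, with a median of 0.26, but none passed over all probe sets. Of all tested probe sets 41.5% lay above 0, and of the brightest 10% of them 70.8%. The groups did not overlap for 6 of them, or 54.5%, beside 12.1% of all tested probe sets and 30.3% of the brightest 10%. The nearest to the threshold was RPL22B (AT3G05560), whose protein binds RNA beside the tunnel mouth. Its signal was 6109, 7074 and 6801 in Col-0 and 9082, 7833 and 10844 in atsf1-2, a difference of means of 0.46 ± 0.13 on the log2 scale (SE; adjusted p = 0.0543 by limma). This gene did pass with median centring, with weighted arrays, with Col-0 replicate 2 and atsf1-2 replicate 3 modelled by a term of their own, and without atsf1-2 replicate 2 (limma adjusted p = 0.0364, 0.0115, 0.0142 and 0.03). Those were 4 of 16 alternatives, and in the others it did not pass (limma adjusted p up to 0.199). After quantile normalization its log2 fold change was 0.29 (limma adjusted p = 0.117). RPL4A and RPL4D encode L4, which reaches into the tunnel, and differed by 0.20 ± 0.13 and 0.21 ± 0.13 on the log2 scale (SE). The lowest of these families was RPL17A (AT1G27400), with 0.054 ± 0.12 (SE), and its signal of 3988, 4820 and 3927 in Col-0 and 4366, 4518 and 4278 in atsf1-2 overlapped between genotypes. After quantile normalization the values of RPL17A and RPL35A fell below 0 (-0.055 and -0.017).

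Of the flexible stalks of the subunit, the factor-binding stalk binds factors that drive translation, and the L1 stalk moves with the leaving transfer RNA. P2 is an acidic protein of the factor-binding stalk, L12 lies at the base of that stalk and L10a forms the L1 stalk. All 5 measured genes had log2 fold changes above 0, with a median of 0.25, and RPL10aB was the only one that passed. Of all tested probe sets 41.5% lay above 0 and 3.00% were called higher, and of the brightest 10% of them 70.8% and 7.62%. After quantile normalization RPL12A and RPP2B lay below 0 (-0.071 and -0.033) and none of the 5 passed. RPL10aA (AT1G08360), the paralog of RPL10aB, had 0.27 ± 0.12 (SE, limma adjusted p = 0.177). RPP2A and RPP2B, which encode P2 and lie next to each other on the chromosome, had 0.25 ± 0.15 and 0.15 ± 0.12 (SE), with overlapping groups for each. RPL12A (AT2G37190) had 0.092 ± 0.14 (SE), and its sign also turned without Col-0 replicate 1 or atsf1-2 replicate 1 (-0.0042 and -0.0062).

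The remaining 21 members encode proteins of the body of the subunit. Of these, 20 had a log2 fold change above 0, the median was 0.23, and RPL28A, RPL36B and RPL7C passed. The shares above 0 and called higher were 95.2% and 14.3%, beside 41.5% and 3.00% of all tested probe sets. In the brightest 10% of probe sets they were 70.8% and 7.62%. After quantile normalization RPL7B, RPL18aB and RPL30B also lay below 0 (-0.018, -0.070 and -0.068) and RPL28A alone passed. Next by size were RPL14A (0.40 ± 0.13), RPL27B (0.40 ± 0.15), RPL34A (0.39 ± 0.16) and RPL13aB (0.37 ± 0.13, SE for each), which did not pass (limma adjusted p = 0.0872, 0.122, 0.154 and 0.0952). In all 4, picked by size, the groups did not overlap, as in 47.6% of the 21, 12.1% of all tested probe sets and 30.3% of the brightest 10%. RPL27B owed much of its value to atsf1-2 replicate 1, with a signal of 7276 there and 5041 and 5131 on the other mutant arrays. RPL34A owed much to atsf1-2 replicate 3, with 10673 there and 7798 and 6566 on the others.

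At the other end, RPL7D (AT3G13580) was the single member below 0. Its signal was 2677, 2035 and 2487 in Col-0 and 2458, 2300 and 1892 in atsf1-2, overlapping throughout, and the log2 difference of -0.11 ± 0.15 (SE; adjusted p = 0.666 by limma) turned to 0.027 with median centring. RPL7A (AT1G80750) had 0.036 ± 0.14 (SE), with a signal of 655, 741 and 656 in Col-0 and 624, 790 and 696 in atsf1-2. RPL18aB (AT2G34480) had 0.089 ± 0.097 (SE), with a signal of 10164, 11167 and 10429 in Col-0 and 11451, 11068 and 11237 in atsf1-2. The groups of each overlapped. For RPL18aB the 95% interval of the log2 fold change ran from -0.12 to 0.30, so neither no change nor the median change of the members lay outside it.

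Signals of the members ran from 402 for RPL27A, on Col-0 replicate 1, to 18945 for RPL37B, on atsf1-2 replicate 3. Signals of different probe sets are not on one scale of transcript number and are not ranked here. RPL27A, the dimmest, differed by 0.22 ± 0.16 on the log2 scale (SE), and RPL37B, the brightest, had 0.23 ± 0.12 (SE). Neither passed, and the groups of both overlapped. RPL28A and RPL31A are next to each other on the chromosome, and differed by 0.63 ± 0.15 and 0.34 ± 0.13 on the log2 scale (SE).

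**Figure D2:**
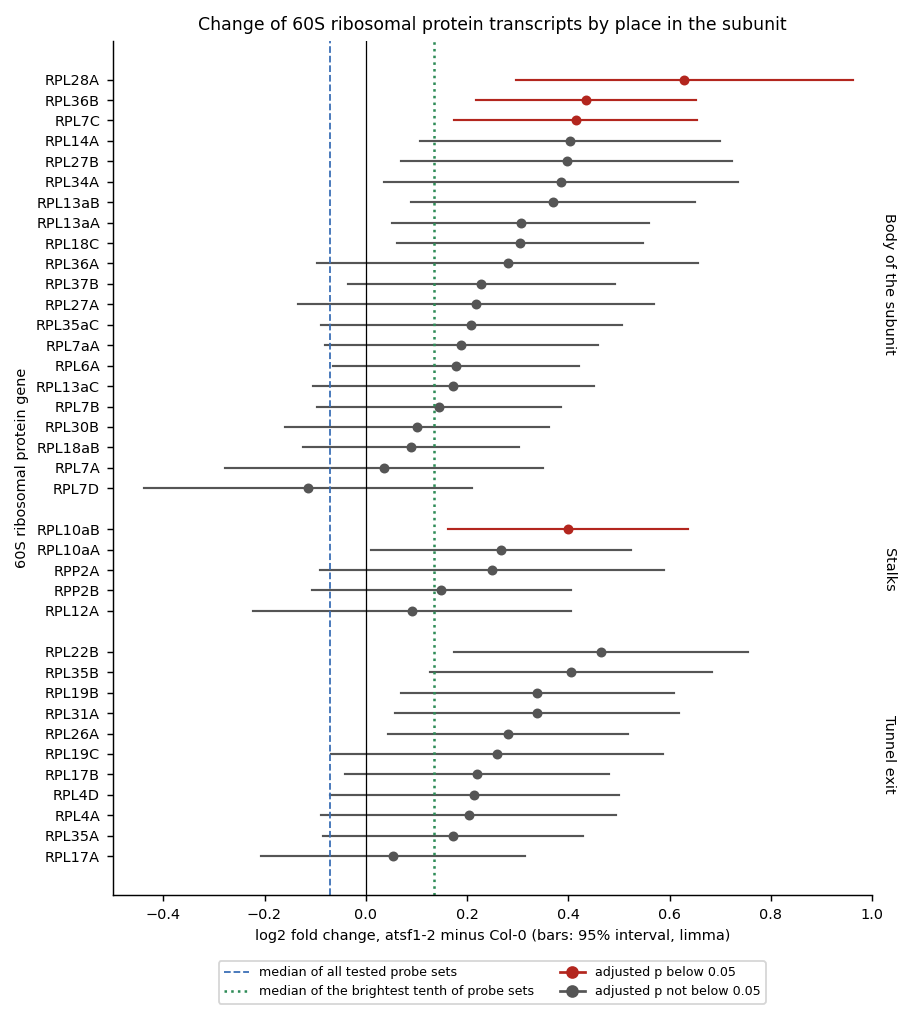
Log2 fold change of each of the 37 genes, atsf1-2 minus Col-0 (x axis), with its 95% interval from limma, grouped by the place of the protein in the subunit (y axis); red marks an adjusted p below 0.05, the dashed line is the median of all tested probe sets (-0.070) and the dotted line that of the brightest 10% (0.14). The points of 36 genes lie above 0, of which 7 lie below 0 after quantile normalization, and the 4 red points are those of RPL28A, RPL36B, RPL7C and RPL10aB.

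The members are among the brightest signals of the array, and fold changes of the brightest probe sets were higher in general. Of the 37, 29 lay in the brightest 10% of tested probe sets and 25 in the brightest 5%. Over all tested probe sets the median change was -0.11 in the dimmest 10%, lowest at -0.15 in the third class of 10%, and from there higher in each brighter class, up to 0.14 in the brightest 10%. Within the brightest 10%, 70.8% lay above 0, 30.3% had all mutant arrays above all wild-type arrays and 7.62% were called higher by limma. Within the brightest 5%, a class added after the data were seen, the median was 0.17 and these shares were 77.2%, 34.8% and 7.76%. The members, with a median of 0.25, 97.3% above 0, 48.6% not overlapping and 10.8% called, were thus nearer to the brightest probe sets than to the array as a whole. Genes for 60S and 40S proteins made up 60 of the 1365 probe sets in the brightest 10% and 50 of the 683 in the brightest 5%. Quantile normalization, which gives all arrays one distribution of signals, moved the median of the brightest 10% to -0.00079 and that of the members to 0.12. With it 29 members lay above 0, 12 did not overlap, and RPL28A alone passed (log2 fold change 0.43, limma adjusted p = 0.0433). The share of members called higher was then 2.70%, beside 3.29% of all tested probe sets and 3.81% of the brightest 10%. The shares not overlapping, with the mutant higher, were 32.4%, 15.1% and 16.4% in the same order. With each array centred on its median, the median of the members was 0.39 and 6 members passed. The median of all probe sets moved from -0.070 to 0.071, and that of the brightest 10% from 0.14 to 0.28. These 6 are 16.2% of the members, beside 5.53% of all tested probe sets and 178 of the 1365 brightest called higher.

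**Figure D3:**
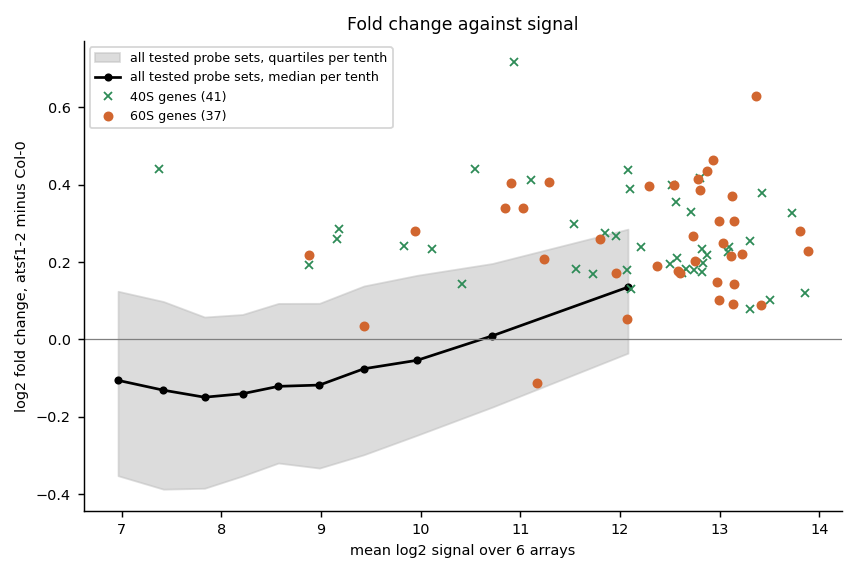
Log2 fold change, atsf1-2 minus Col-0 (y axis), against the mean log2 signal over the 6 arrays (x axis); the black line gives the median of all tested probe sets in each 10% class of signal, the grey band their quartiles, orange points the 37 genes for 60S proteins and green crosses the 41 tested genes for 40S proteins. The black line starts at -0.11 at the dim end, dips to -0.15 and ends at 0.14 at the bright end, and most orange points lie above it.

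Paralogs of a family were compared by their log2 ratio on the same array, which does not depend on how bright the array is as a whole. A shift that differs with signal does not cancel where paralogs differ in brightness. Over the 10% classes of signal above, the median change ran from -0.15 to 0.14. In 10 families more than 1 gene was measured, which gave 17 pairs, some of which share a gene. The change of the ratio between genotypes had a median size of 0.15 on the log2 scale and exceeded the pooled SD within genotypes for 7 pairs. For 5 pairs the ratios of the genotypes did not overlap (exact permutation p = 0.1 for each, the smallest that 3 arrays against 3 allow, and 0.34 after Benjamini-Hochberg adjustment over the 17 pairs). No pair could therefore pass, and paralogs of nearly identical sequence may share signal. The widest was RPL7C over RPL7D, whose log2 ratio was 1.15, 1.66 and 1.26 on the Col-0 arrays and 1.69, 1.72 and 2.24 on the atsf1-2 arrays, a difference of 0.53. The lowest mutant value lay just above the highest of the wild type.

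Of the other pairs with no overlap, another 2 also involved RPL7C. The log2 ratio of RPL7A over RPL7C was -3.18, -3.12 and -3.19 in Col-0 and -3.67, -3.26 and -3.69 in atsf1-2, a difference of -0.38. The log2 ratio of RPL7B over RPL7C was 0.49, 0.41 and 0.59 in Col-0 and 0.33, 0.16 and 0.19 in atsf1-2, a difference of -0.27. RPL7B itself had a signal of 8335, 8561 and 8997 in Col-0 and 10003, 8487 and 10198 in atsf1-2. RPL7C was thus higher relative to each of its 3 measured paralogs on all mutant arrays than on any wild-type array. After quantile normalization the ratios of RPL7A over RPL7C and of RPL7C over RPL7D overlapped (differences of -0.12 and 0.39, exact permutation p = 0.2 for each).

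The log2 ratio of RPL35A over RPL35B was the steadiest. It was 1.43 on all 3 Col-0 arrays (SD 0.0026, n = 3) and 1.26, 1.19 and 1.14 on the atsf1-2 arrays, a difference of -0.23. RPL35B (AT2G39390) had a signal of 2058, 2239 and 2220 in Col-0 and 2905, 2535 and 3231 in atsf1-2, a difference of means of 0.41 ± 0.13 on the log2 scale (SE; adjusted p = 0.0714 by limma). RPL35A (AT3G09500) had 0.17 ± 0.12 (SE), with a signal of 5549, 6017 and 5979 in Col-0 and 6961, 5770 and 7106 in atsf1-2.

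The log2 ratio of RPL13aB over RPL13aC was 1.065, 1.126 and 1.003 in Col-0 and 1.153, 1.297 and 1.335 in atsf1-2, a difference of 0.20. RPL13aB (AT3G24830) had a signal of 7398, 8302 and 7831 in Col-0 and 9501, 9017 and 12112 in atsf1-2. RPL13aC (AT4G13170) had 3537, 3804 and 3907 in Col-0 and 4274, 3669 and 4800 in atsf1-2, with overlapping groups and a difference of means of 0.17 ± 0.13 on the log2 scale (SE; adjusted p = 0.419 by limma). At the other extreme, the ratio of RPL4A over RPL4D changed by -0.011 on the log2 scale (pooled SD 0.16, n = 3 for each genotype). The ratios of the remaining 11 pairs also overlapped, among them RPL10aA over RPL10aB (-0.13) and RPL36A over RPL36B (-0.15), where only the second paralog had passed the test by itself.

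**Figure D4:**
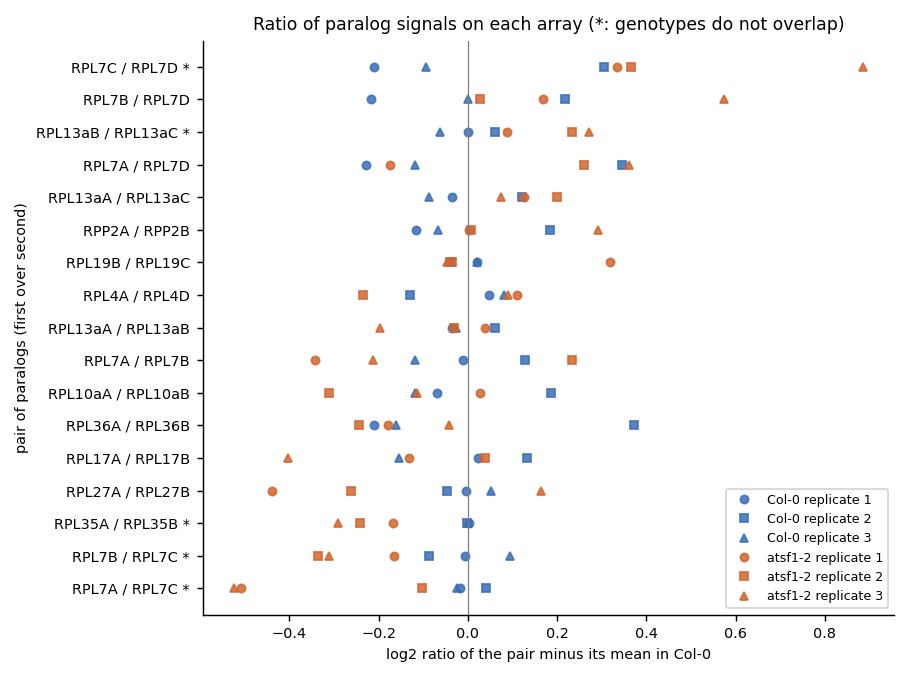
Log2 ratio of the signals of 2 paralogs on each array, minus its mean over the 3 Col-0 arrays (x axis, log2 units), for 17 pairs (y axis, first gene over second); blue marks Col-0, orange atsf1-2, the shape is the replicate, and an asterisk marks the 5 pairs whose genotypes do not overlap. The largest shift is that of RPL7C over RPL7D (0.53), and the Col-0 points of RPL35A over RPL35B fall almost on one another.

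Genes for the small subunit moved much as those of the large one. Of 90 listed 40S genes, 44 were measured and 41 passed the filter, and all 41 had a log2 fold change above 0 (35 after quantile normalization). Their median was 0.24, beside 0.25 for the 60S members, 3 (7.32%) rose by limma and none fell, and 18 (43.9%) did not overlap. The shares called higher and not overlapping were 3.00% and 12.1% over all tested probe sets, and 7.62% and 30.3% in the brightest 10%. The 3 that rose were AT2G45710, which encodes S27, AT5G52650, which encodes S10, and AT3G47370, which encodes S20, by 0.72 ± 0.15, 0.40 ± 0.11 and 0.44 ± 0.12 on the log2 scale (SE; adjusted p = 0.0181, 0.0453 and 0.0486 by limma). After quantile normalization the median of the 40S list was 0.13 and 1 gene passed (2.44%, beside 3.29% of all tested probe sets). Without any single Col-0 array or atsf1-2 replicate 1 no 40S gene passed, beside 0.916% to 1.13% of all tested probe sets called higher. Whether the 2 subunits differ was not tested.

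Other parts of the protein synthesis machinery were measured for fewer genes. Of 5 tested translation factors, of 37 listed, AT5G12110, which encodes a subunit of elongation factor eEF1B, rose by 0.53 ± 0.098 on the log2 scale (SE; adjusted p = 0.0114 by limma). The median of the 5 was 0.18, and without Col-0 replicate 1 none passed, beside 1.00% of all tested probe sets called higher. Of 17 tested ribosome biogenesis genes, of 41 listed, AT3G03920, which encodes the GAR1 protein of a complex that modifies ribosomal RNA, rose by 0.44 ± 0.12 on the log2 scale (SE; adjusted p = 0.0456 by limma), the other 16 did not pass, and the median was 0.077. That is 5.88% of the list, beside 3.00% of all tested probe sets. No biogenesis gene passed with no filter, after quantile normalization, without a trend, with the replicate number as a block, or without any single array other than atsf1-2 replicate 3. None of 7 tested genes for proteins of the plastid ribosome, of 34 listed, passed, and their median was 0.055, which turned to -0.063 after quantile normalization. At an unadjusted p under 0.05 by limma the count for the plastid list was also 0, and the smallest p belonged to AT5G47190, whose difference was -0.23 ± 0.14 on the log2 scale (SE). RAPTOR1, a partner of the TOR kinase, which controls growth and translation, had -0.47 ± 0.23 (SE, limma adjusted p = 0.218) and was the only tested gene of 6 listed for that pathway. Of the organ markers, EXPA18, expressed in root hairs, had the smallest p of its list with -0.064 ± 0.15 (SE), and LHCB4.1, a leaf antenna protein, had 0.20 ± 0.093 (SE, limma adjusted p = 0.21).

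**Figure D5:**
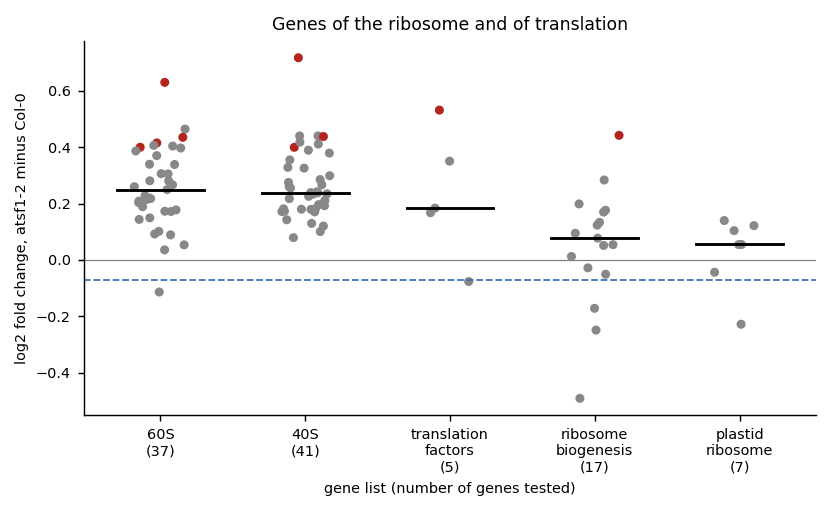
Log2 fold change of single genes, atsf1-2 minus Col-0 (y axis), for 5 gene lists with the number of genes tested (x axis); black bars are medians, red points passed limma's adjusted threshold of 0.05, and the dashed line is the median of all tested probe sets. The medians are 0.25 for 60S, 0.24 for 40S, 0.18 for translation factors, 0.077 for ribosome biogenesis and 0.055 for the plastid ribosome, and in the same order 0.12, 0.13, 0.17, 0.14 and -0.063 after quantile normalization, so that the order of the lists depends on the scaling.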

How the data were processed

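For every array the authors deposited linear signal intensities, 1 to a probe set; the submitters' processing notes name MAS5 and Expression Console 1.2. A scaling target is not given in the sources used here. Precision is limited by having 3 arrays per genotype. Of 22746 probe sets other than controls, 13513 named 1 gene, 503 several and 8730 none, and 13436 of the first matched the RefSeq table of TAIR10.1. That table gives 36 of the 37 members no symbol of their own, so family names come from the usual nomenclature of these loci.

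Intensities were taken to log2, kept at or above the 40th percentile of the mean (13648 probe sets), and compared with limma 3.58.1 in R 4.3.3 (trend, two-sided, Benjamini-Hochberg over all). The fit was tested on simulated data. Paralog ratios used exact permutation tests. Members, lists, tests and alternatives were chosen with earlier results of these data known. Named were members past the threshold, the 4 highest and 4 lowest fold changes, paralogs whose ratios did not overlap, the brightest and dimmest member, and for each other list up to 3 called genes or, where none was called, the gene with the smallest p. RPL4A, RPL4D, RPL10aA, RPP2A, RPP2B, RPL12A, RPL14A, RPL27B, RPL30B, RPL34A, RPL31A and RPL36A were named after their values were seen. Promoter and protein sequences were not used here. Alternatives were other filters, a pseudocount of 38.3, quantile normalization, median centring, no trend, array weights, a replicate block, and arrays left out or modelled.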

Additional observations from a re-analysis of the deposited data

How the results depend on the processing

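Over 16 alternatives, no 60S member fell past the threshold, and none was called under every one. The number that rose was 0 with no filter, 0 by eBayes without a trend, 1 after quantile normalization, 1 with the replicate block, 15 when arrays were weighted and 11 when a term was added for Col-0 replicate 2 and atsf1-2 replicate 3, beside 4 as reported. Leaving out single arrays gave 0 to 5 risers, 18 to 28 members without overlap (28 without atsf1-2 replicate 2), and a median 0.24 to 0.41 above that of all probe sets. In these fits 0.916% to 3.38% of all tested probe sets and 1.90% to 9.52% of the brightest 10% were called higher. Groups of fewer arrays overlap less often. Without atsf1-2 replicate 2, 75.7% of the members, 16.4% of all probe sets and 43.4% of the brightest 10% did not overlap, with the mutant higher. With all arrays these shares were 48.6%, 12.1% and 30.3%. The median was 0.12 after quantile normalization (also 0.12 above that of all probe sets) and 0.39 with median centring. Paralog pairs without overlap numbered 3 after quantile normalization, 9 without Col-0 replicate 2 and atsf1-2 replicate 3, and 5 to 8 without single arrays (8 without Col-0 replicate 2), and none of the 5 differences changed sign. Why these values moved was not tested.

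Signs turned in 9 members, none of which had passed. After quantile normalization these were RPL7B (AT2G01250, -0.018), RPL12A (AT2G37190, -0.071), RPL17A (AT1G27400, -0.055), RPL18aB (AT2G34480, -0.070), RPL30B (AT1G77940, -0.068), RPL35A (AT3G09500, -0.017) and RPP2B (AT2G27710, -0.033). RPL7D (AT3G13580) turned to 0.027 with median centring, RPL12A (AT2G37190) to -0.0042 without Col-0 replicate 1 and -0.0062 without atsf1-2 replicate 1, and RPL7A (AT1G80750) to -0.051 without atsf1-2 replicate 2.

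The replicate numbers are not said to pair samples, and deviations of same-numbered arrays correlated at 0.10, -0.19 and -0.21, so the replicate block is given only here; with it RPL28A alone passed (adjusted p = 0.0479). Averaging the probe sets of a gene could change nothing, since no listed gene had several, and settings that alter only the limma fit do not apply to paralog ratios.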

Other observations

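Outside the single-gene probe sets, 6 probe sets were paired with several genes that include 9 of the listed 60S genes, and are not named here. All 6 had a log2 fold change above 0, from 0.068 to 0.47. The highest was past the threshold (limma adjusted p = 0.0274) with no overlap between genotypes, and the other 5 were not (adjusted p up to 0.807).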
